A study of Caenorhabditis elegans with 2 samples.

Results

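The regions described here are long runs of the Caenorhabditis elegans genome in which the authors' candidate peak list for the homeodomain protein CEH-58 places no peak summit. Members were taken as every interval of 8 kb or more between neighbouring summits of 1 candidate list of the whole series, sorted along each chromosome. Of 105939 intervals between neighbouring summits, 961 met that length (0.907%). Together they covered 16811491 bp, or 16.8% of the 6 nuclear chromosomes. They were chosen by the summit positions in that list, so the absence of its summits is a description and not a result.

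Anti-GFP ChIP-seq was carried out on whole young adults at 65 hours, grown from larvae starved at L1 after bleaching. All worms were of strain OP808, which carries the integrated array wgIs808, a fosmid copy of ceh-58 tagged with TY1, EGFP and 3xFLAG, together with the rescuing unc-119(+) gene in an unc-119(tm4063) background. There were 2 biological replicates in 1 group, with chromatin sonicated to between 200 and 800 bp, and no second condition. The strain is a single transgenic line, and the fusion protein was present beside whatever the endogenous ceh-58 gene makes. Control libraries entered the authors' processing and were not analysed here. Depth per library is unknown, because the deposited lists hold peaks and not reads.

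Each of the 105945 candidates of the main list is listed with a pair of matched intervals, and 99.1% of the candidates overlap the first and 98.1% the second. Of the first intervals, 48.4% stand with the same coordinates in replicate 1's own candidate list and 1 in that of replicate 2. Of the second, 49.1% stand in the list of replicate 2 and 1 in that of replicate 1. How the intervals were made is not stated in the files.

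In ChIP-seq a candidate peak is a place where precipitated fragments pile up above a local or control background, and a deep candidate list reaches down to weak pile-ups across nearly all of a genome. Where reads cannot be placed uniquely, as in tandem repeats and duplicated blocks, pile-ups are hard to call. The worm genome holds such blocks next to families of recent gene duplicates. Its chromosome IV also carries most of the genes for piRNAs (21U-RNAs), short germline RNAs that are bound by the Piwi protein PRG-1 and guard the genome against transposons. Many of those genes have a short upstream motif of their own.

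The ceh-58 gene itself lay in one of the stretches. It ran from 10355279 to 10390665 on chromosome II of ce11, a length of 35386 bp, and was the 49th longest of the 961 and the fourth longest of 104 on II. The candidates that bound it had signals of 18.5 on the left and 30.2 on the right, against a median of 22.0 over the whole list; the signal is the authors' own value per peak. The bases around these summits show what the edges of the empty run look like, with the summit base in capitals, on the plus strand of WBcel235.
Left edge, chrII:10355229-10355329: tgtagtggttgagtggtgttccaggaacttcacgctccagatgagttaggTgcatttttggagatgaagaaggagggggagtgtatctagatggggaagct
Right edge, chrII:10390615-10390715: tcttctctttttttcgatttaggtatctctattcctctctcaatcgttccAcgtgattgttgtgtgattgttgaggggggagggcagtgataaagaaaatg

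Neither replicate's own candidate list had a summit in the ceh-58 stretch. The nearest summits on either side were 36231 bp apart in replicate 1 and 37065 bp apart in replicate 2. In the second candidate list of the whole series they were 34914 bp apart, because that list had 1 further summit, 472 bp inside the right edge. The run without summits therefore had nearly the same ends in all 4 ranked lists. The edges were 12462 bp to the left and 21068 bp to the right of the ceh-58 gene body (10367741 to 10369597, minus strand).

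Protein-coding genes wholly inside that stretch were ceh-58, its homeobox neighbour ceh-57, the zinc-finger gene ztf-27 and C07E3.4. C07E3.3 crossed the left edge. The sequence was mostly single-copy. Of its 31-mers, words of 31 bases read on both strands, 91.5% occurred once in the genome. GC content was 36.0% and 28.8% of the bases were soft-masked as repeats in the reference. All 31-mers that start in ceh-58 were unique, as were 96.5% of those in ceh-57 and 99.4% of those in ztf-27, while in C07E3.4 the share was 39.1%. The strain carries additional copies of ceh-58 on its fosmid, and no source used here gives the ends of that fosmid. The part of the transgene in this empty run was not tested.

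**Figure D1:**
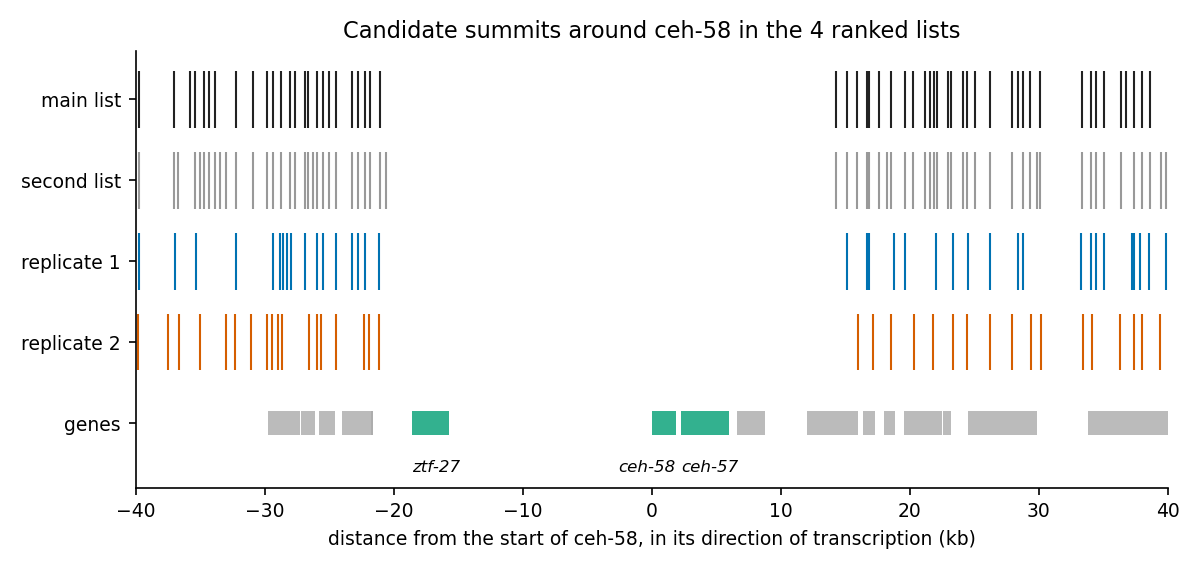
Candidate summits (vertical lines) of the 4 ranked lists around ceh-58, by distance in kb from the start of the gene along its direction of transcription; bars are protein-coding genes and green marks ceh-58, ceh-57 and ztf-27. All 4 lists are dense on both sides, and apart from 1 summit of the second list near the right edge of the stretch on the chromosome (left in the plot) none has a summit inside it.

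The rescue marker of the transgene, unc-119, which is needed for neuronal development, lay at the end of another stretch. That stretch ran from 10877032 to 10906537 on III (29505 bp, 98.2% unique 31-mers) and ended inside the gene (10902641 to 10908935, plus strand). Replicate 1 had 0 summits in it and replicate 2 had 1. Wholly inside were the genes C44B9.3, athp-1, com-1 and fbxb-87. The main candidate list had 4 summits in unc-119, all from the bounding summit onward, and the second list and each replicate's list had 1 summit in the gene. So unc-119, unlike ceh-58, was empty only in part.

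Lengths of the stretches began sharply. The main list had 30 intervals of 6 to 8 kb and 11 of 8 to 10 kb, but 240 of 10 to 12 kb. Of the 961 stretches, 950 (98.9%) were 10 kb or longer. The longest intervals just outside the length rule were 7723 and 7664 bp, and the shortest stretches just inside were 8040 and 8174 bp. The median stretch was 14667 bp, with quartiles of 11925 and 18975 bp, against a median interval of 627 bp over the whole list. Of the 11 stretches under 10 kb, 8 had fewer than 10% unique 31-mers. The same step stood in the second list, with 4 intervals of 9 to 10 kb and 111 of 10 to 11 kb. The replicate lists had no such gap before 10 kb, with 56 and 65 intervals of 9 to 10 kb and 74 and 84 of 10 to 11 kb for replicates 1 and 2. The cause of the step was not tested.

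**Figure D2:**
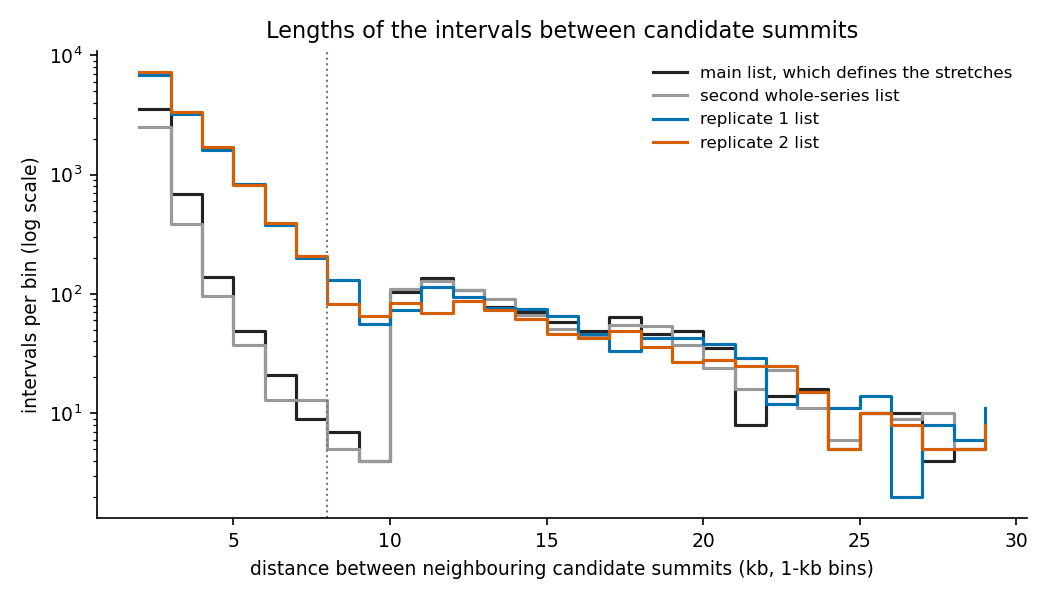
Number of intervals between neighbouring candidate summits per 1-kb bin of length (log scale) in the 4 ranked lists; the dotted line marks 8 kb. In both whole-series lists the counts fall to 4 at 9 to 10 kb and rise to 104 and 111 in the next bin.

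Every ranked list had stretches of this length. The main list had 961, the second list 949, replicate 1 had 1053 and replicate 2 had 917. They covered 16.8%, 16.5%, 16.8% and 15.2% of the nuclear genome. The whole-series lists are not independent of each other: 93827 of the 105945 main candidates had the same coordinates in the second list. The replicate lists share their reads with both.

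Chromosome IV stood out by its stretches. They covered 29.1% of IV, against 19.7% of I, 18.2% of III, 12.8% of V, 11.8% of II and 9.92% of X. IV held 238 of the 961, and 47 of the 76 stretches of 30 kb or more. With each chromosome cut into 10 equal bins, bin 9 of IV was 64.6% and bin 10 was 54.0% stretch, while outside IV the highest was bin 2 of III with 35.1%. By number, the stretches were spread along the chromosomes. With each chromosome cut into 3 equal parts, 661 stretches (68.8%) had their middle in an outer part, and outer parts make up 66.7% of the length. Without IV the share was 68.5%. Of 955 neighbouring pairs of stretches, 110 were under 5 kb apart and 22 shared their bounding summit.

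**Figure D3:**
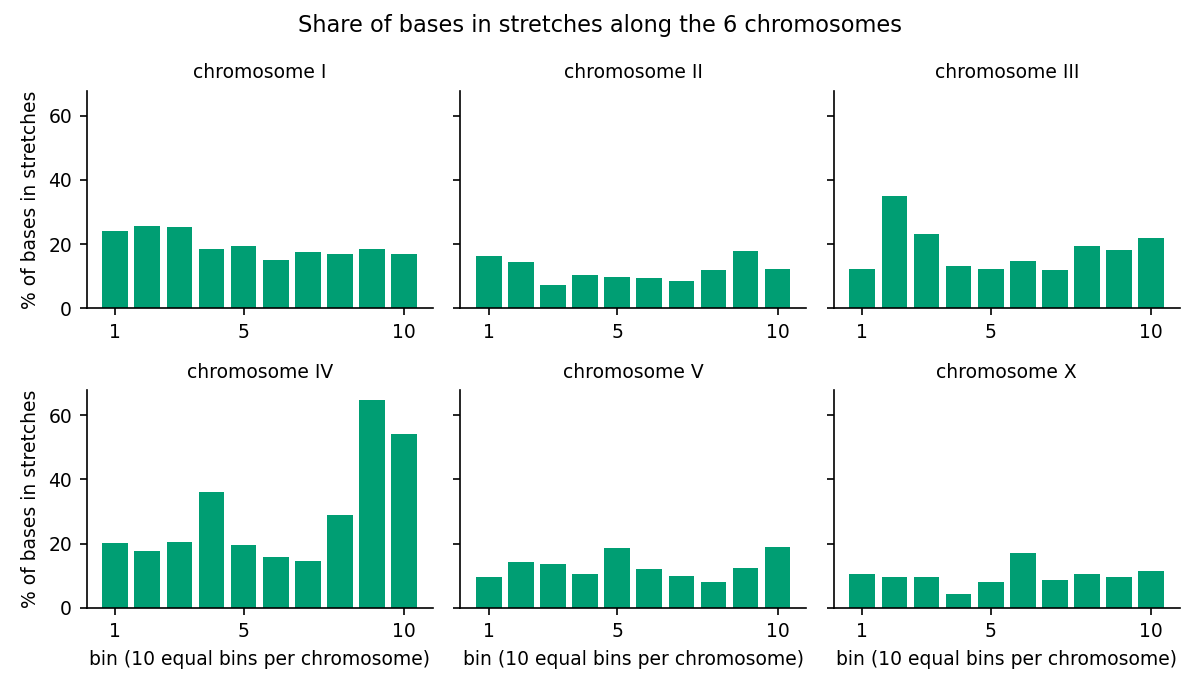
Share of bases in stretches (%) in each of 10 equal bins of the 6 chromosomes, from left to right end. Bins 9 and 10 of IV, at 64.6% and 54.0%, stand above all others.

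The stretches were poorer in G and C and richer in repeats than the rest of the genome. GC content was 32.7% inside and 36.0% outside. The flanks of a stretch were its own length on each side, cut at chromosome ends. Bases in other stretches were left out of them, so the flanks hold no stretch sequence. GC was lower in the stretch than in these flanks in 884 of 961 cases (92.0%). The median difference was -2.73 percentage points. Soft-masked bases made up 46.0% inside and 33.6% outside, and the share was higher than in the flanks in 782 stretches. Coding-gene exons covered 21.3% of the stretches and 31.2% of the rest, and gene bodies covered 57.6% and 63.7%. GC was lower inside on each chromosome, from 31.8% against 35.7% on IV to 33.6% against 35.7% on V. These are descriptions of positions in 1 reference and no test was made, since neighbouring stretches are not independent.

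Most stretches consisted of single-copy sequence. Unique 31-mers made up 84.8% of the stretches and 92.6% of the rest. Repeated 31-mers whose copies all lay on the same chromosome within 100 kb made up 6.40% inside and 2.45% outside, and dispersed ones 8.77% and 4.99%. The median stretch was 93.3% unique, close to the 93.9% of its flanks, and 485 stretches were below their flanks and 474 above. By class, 575 stretches (59.8%) were at least 90% unique, 326 were 50 to 90% unique, 32 were 10 to 50% unique and 28 were under 10%. Part of the difference in the total came from few stretches: without the 28 least unique ones the share inside was 88.0%, still below the 92.6% outside.

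Both replicate lists were thinner inside the stretches, but seldom empty together. Replicate 1 had no summit in 222 stretches (23.1%) and replicate 2 in 178 (18.5%), and both were empty in 19 (1.98%). Of 1411 equal-length flanks that met no stretch, both replicates were empty in 1 (0.0709%). Inside, there were 1.58 summits per 10 kb in replicate 1 and 1.82 in replicate 2, against 6.91 and 6.67 outside. The replicates' reads also went into the main list, so a low density there is in part built into the choice of stretches. The second list was empty in 474 stretches (49.3%), and all 4 lists in 8.

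Summits of the replicates were densest around the edges, with 8.24 and 8.35 per 10 kb within 500 bp outside. The edges are main-list summits and the lists share reads. A replicate's own call of a bounding peak can therefore fall just inside, and the edge density is in part built into the choice of stretches. Within 500 bp inside the bounding summit the replicates had 6.29 and 6.65 summits per 10 kb, and between 1000 and 1500 bp they had 2.12 and 2.45. By 5 to 5.5 kb inside, the values were 1.36 and 1.51. With 500 bp removed at each end, both replicates were empty in 69 stretches, and with 2000 bp removed in 198. The count of stretches empty in both therefore depends on how the edges are treated.

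**Figure D4:**
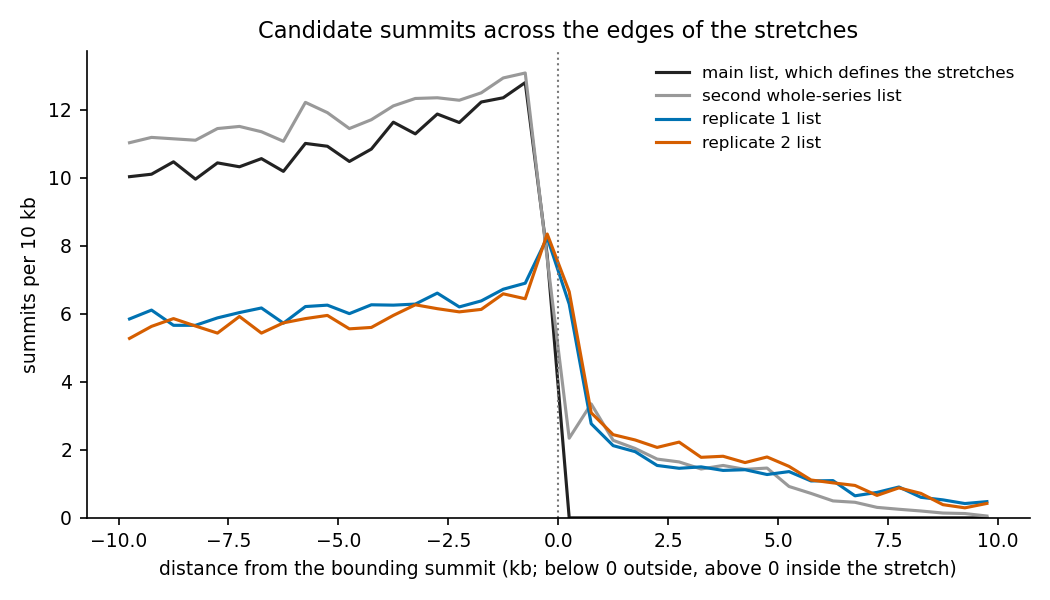
Summits per 10 kb in 500-bp bins by distance in kb from the bounding summit of each stretch (negative outside, positive inside), for the 4 ranked lists. The bounding summits themselves are left out, and replicate summits close to them are kept. The replicate lists fall from 6.29 and 6.65 in the first bin inside to 1.36 and 1.51 at 5 kb, without reaching 0.

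Most of the length of the stretches was empty in one replicate or the other. Stretches of 8 kb or more computed from replicate 1 alone covered 75.5% of the bases of the main stretches, and those from replicate 2 covered 70.0%. Either covered 95.5%, and the share in both was 49.99%. Outside the main stretches the shares were 4.94%, 4.14%, 8.33% and 0.738%. The lists share reads, and how far the making of the main list fixes these shares was not tested. By stretch, 295 were at least 80% covered in both replicates. Another 245 were so covered in replicate 1 with under 20% in replicate 2, and 171 the other way round. Only 35 were under 20% covered by either.

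In 72 stretches, after 500 bp were removed at each end, one replicate had at least 8 summits and the other had 0, and these divided evenly, with 36 empty in replicate 1 and 36 in replicate 2. They were mostly single-copy, with a median of 93.7% and a lowest value of 74.3% unique 31-mers. The examples that follow were picked with their values in view. The stretch from 2311161 to 2355635 on III, with the translation initiation factor gene iffb-1, the phosphatase gene ppm-1.D and phf-5, had 13 summits in replicate 1 and 0 in replicate 2. In the stretch from 11291004 to 11311906 on III, with the small GTPase gene rab-35, replicate 1 had 0 and replicate 2 had 12. The stretch from 10805263 to 10825206 on I, with slfl-3, had 0 in replicate 1 and 18 in replicate 2. In the stretch with the bHLH genes hlh-17 and hlh-31 (IV, 16245344 to 16265017) replicate 1 had 9 and replicate 2 had 0. The replicates thus disagreed in both directions. Over their whole length, 203 stretches were empty in replicate 1 only and 159 in replicate 2 only. Among the 1411 flanks that met no stretch, these counts were 0 and 1. Stretches were chosen for lacking main-list summits, and how far that choice gathers runs with summits in only 1 replicate was not tested. With 1 library each, no test of a single stretch was possible.

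Stretches empty in both replicates over their whole length were mostly among the least unique ones. Of the 28 stretches under 10% unique, 12 were empty in both (42.9%), against 2 of 32 at 10 to 50%, 3 of 326 at 50 to 90% and 2 of 575 at 90% or more. The make-up depended on the edges. With 500 bp removed at each end, 21 of the 69 stretches empty in both were under 10% unique, 7 were at 10 to 50%, 16 at 50 to 90% and 25 at 90% or more, so the most unique class then held the most. Against the size of each class these were 21 of 28, 7 of 32, 16 of 326 and 25 of 575. Without trimming, the 2 in the most unique class were the ceh-58 stretch and the run from 13105001 to 13124663 on III, which meets zig-8, an immunoglobulin-domain gene, and the acyltransferase gene dhhc-8. Of the 19, the ceh-58 stretch was the second longest, after a repeated block of 73710 bp on V. The median of the 19 was 14478 bp. Others met sqv-2, ubc-15 and pinn-1 (II, 2882143 to 2903557, 80.4% unique), and tmem-231 (IV, 8414296 to 8428774, 68.7% unique).

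**Figure D5:**
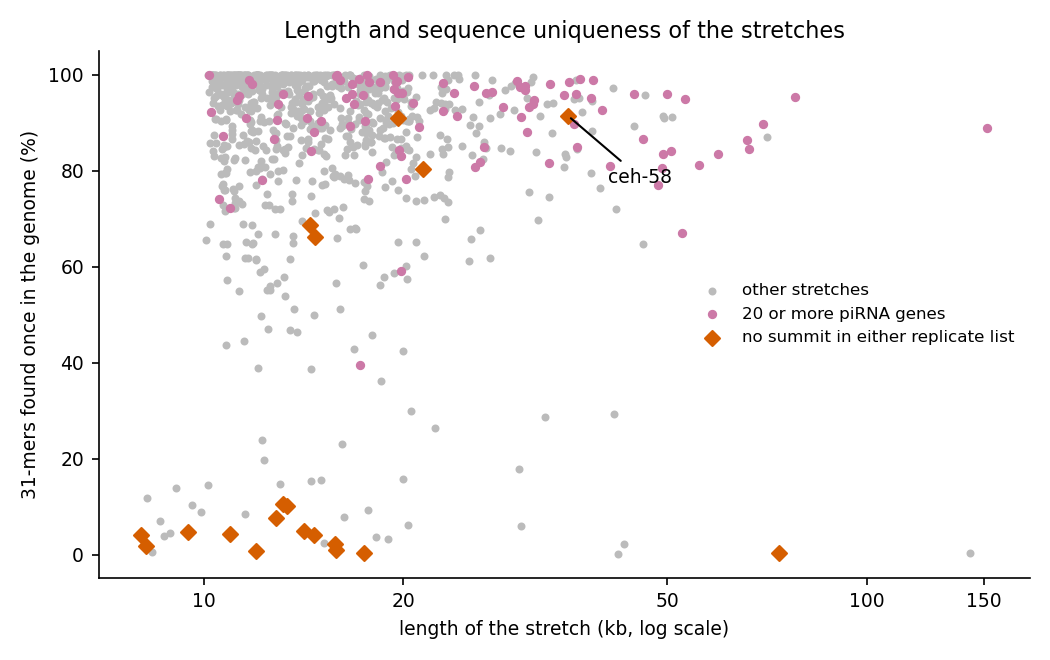
Length (kb, log scale) and share of 31-mers found once in the genome (%) for each of the 961 stretches. Diamonds mark the 19 with no summit in either replicate list, of which 12 lie under 10%; the ceh-58 stretch, at 91.5%, is the longer of the 2 that are at least 90% unique. With 500 bp trimmed at each end, 69 are empty in both, 21 of them under 10% and 25 at 90% or more.

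The least unique stretches were of several kinds, and the largest were duplicated blocks on V. The run from 2420115 to 2563215 on V (143100 bp, the second longest of all) had 0.298% unique 31-mers. Its left neighbour, from 2346405 to 2420115, had 0.385%, and 99.6% of the 31-mers of that neighbour recurred in the longer run. Replicate 1 had 0 summits in the shorter and 1 in the longer, and replicate 2 had 0 in both. Both carried copies of the chemoreceptor genes srd-61, str-257 and str-258, the insulin/EGF-receptor L-domain gene irld-35, the lectin gene clec-209, the astacin protease gene nas-2 and the transporter gene mct-2. The longer run held 32 protein-coding genes, the most of any stretch, and the shorter 14. Within the longer run, 50.3% of the 31-mers were themselves repeated.

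A second pair on V held replication-dependent histone genes. The runs from 8812387 to 8855373 and from 8855373 to 8897586 each contained his-49, his-50, his-51 and his-52, which code for core histones, and some of these symbols are given to more than 1 gene copy. They shared 97.6% and 99.9% of their 31-mers, and were 2.11% and 0.152% unique. Replicate 1 had 1 summit in each, and replicate 2 had 1 in the first and 0 in the second. GC content was 41.3% and 41.2%, well above the median stretch at 32.9%.

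Tandem repeats made up others. On III, the stretches from 7416875 to 7425049 and from 7426454 to 7444615 were 99.8% and 96.2% soft-masked and met a repeat of 94 bp, at which 95.2% and 84.8% of the bases matched the base 1 period on. On IV, the stretch from 688820 to 698298 lay in Y55F3C.17, was 97.8% soft-masked and had a period of 102 bp with 95.7% identity; both replicates were empty there. The most frequent unit of each is shown, on the plus strand of WBcel235 and all in lower case because no base is singled out, since these units are what the main candidate list left uncovered.
94-bp unit, chrIII:7427739-7427832: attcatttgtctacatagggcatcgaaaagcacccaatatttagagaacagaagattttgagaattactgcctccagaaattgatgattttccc
102-bp unit, chrIV:689382-689483: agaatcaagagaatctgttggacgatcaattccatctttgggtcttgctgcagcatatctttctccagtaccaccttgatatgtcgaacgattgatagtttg
The 94-bp unit as printed occurred 40 times without a change in its stretch and 81 times in the genome, and the 102-bp unit 22 times, all in its stretch.

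Other repeated sequence lay over genes, in longer units on I and IV. On I, a stretch of 15757 bp from 4340641 to 4356398 lay within anc-1, which codes for the giant protein that anchors nuclei to the actin cytoskeleton, and repeated every 2887 bp with 82.7% identity. It was empty in all 4 lists and had the highest GC content of any stretch, 46.8%. On IV, the stretch from 890298 to 906151 held F-box genes of the fbxc type (fbxc-4, fbxc-5 and fbxc-8) in units of 4152 bp with 70.2% identity, and both replicates were empty. On V, the stretch from 14877880 to 14888824 held nspa-1, nspa-5 and nspa-7, nematode-specific peptide genes, and both replicates were empty. On X, copies of rgs-8.1, a regulator of G-protein signalling, flanked fbxa-41 between 1943700 and 1957845, again with no summit in either replicate. No clear period was found in these stretches of V and X. The best matches were 31.0% at 12 bp on V and 31.8% at 20 bp on X.

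The largest group of stretches by number of genes inside held piRNA genes. Of 15363 annotated piRNA genes, 10258 (66.8%) lay wholly inside a stretch, against 10.1% of protein-coding genes, 11.4% of tRNA genes and 13.0% of snoRNA genes. Protein-coding genes are longer and cross edges more often, and 2674 of 19973 had their start inside. On IV, 10162 of 14714 piRNA genes were inside (69.1%), where stretches covered 29.1% of the bases. On the other chromosomes the share of piRNA genes was 12.3% to 21.4%. All 99 stretches with 20 or more piRNA genes were on IV. They made up 55.03% of stretch length there and held 9928 piRNA genes. Their median GC content was 30.8%, against 33.1% in the other 139 stretches of IV, and their median length 20656 bp against 14533 bp.

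Uniqueness did not set these piRNA-rich stretches apart, since their median was 93.9% unique 31-mers. None was empty in both replicates, 19 were empty in replicate 1 and 12 in replicate 2. Inside them, replicate 1 had 0.931 and replicate 2 had 1.16 summits per 10 kb. Across IV, 7 windows of 1 Mb held at least 500 piRNA genes each. There, 48.9% of the bases were in stretches, against 17.5% in the rest of IV, and GC content was 33.1% against 35.5%. Of the piRNA genes in these windows, 70.4% were inside stretches. GC content and piRNA genes thus varied together, and their parts cannot be told apart here.

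The longest stretch of all was one of these. It ran from 16005765 to 16157784 on IV (152019 bp), contained 704 piRNA genes and had a GC content of 29.3%. Its 31-mers were 88.8% unique. Replicate 1 had 5 summits in it, replicate 2 had 4 and the second list 3. The protein-coding genes wholly inside were the bHLH gene hlh-32 and 2 with sequence names, Y105C5B.25 among them. The 60 bases before each piRNA gene were searched for CTGTTTCA, the core of the upstream motif known for these genes, on the strand of the gene. It was present for 29.8% of the piRNA genes in this stretch, for 33.6% of all those inside stretches on IV and for 37.1% of those on IV outside stretches. On other chromosomes 6.78% had it, and 0.569% of all 60-bp windows of the genome on both strands. Where present inside stretches on IV, it began at a median of 46 bp before the piRNA. As examples, the sequences of 4 loci near the left end of the longest stretch follow. They were picked by the motif, as the first 3 loci with it (in capitals) and the first without it among loci set apart from their left neighbour, so their ratio is not that of the stretch; each is printed in the direction of the gene, minus strand of WBcel235, and ends with the piRNA.
21ur-9775, chrIV:16006057-16006137: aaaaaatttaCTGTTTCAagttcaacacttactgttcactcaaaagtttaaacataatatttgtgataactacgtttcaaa
21ur-104, chrIV:16006915-16006995: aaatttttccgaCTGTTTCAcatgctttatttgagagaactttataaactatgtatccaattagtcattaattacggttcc
21ur-12954, chrIV:16009703-16009783: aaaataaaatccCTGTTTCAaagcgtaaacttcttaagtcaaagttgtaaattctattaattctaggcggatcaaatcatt
21ur-5144, chrIV:16006585-16006665: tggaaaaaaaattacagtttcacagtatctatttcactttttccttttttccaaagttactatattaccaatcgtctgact

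Other long stretches of IV were of the same kind. The run from 14665618 to 14743608 (77990 bp) held 321 piRNA genes with the half-transporter gene haf-8 and the ligand-gated channel genes lgc-7 and lgc-8, and had 11 summits in replicate 1 and 3 in replicate 2. The run from 13669310 to 13739055 held 258 piRNA genes with oac-48, srlf-26 and nyn-1, the run from 15307961 to 15373881 held 267 with the T-box genes tbx-39 and tbx-40 and irld-59, and the run from 13893332 to 13959718 held 234 with Y37A1A.2 and Y37A1A.3. The STAT-like gene sta-1 and Y51H4A.941 lay in a run of 59685 bp with 234 piRNA genes, 0 summits in replicate 1 and 1 in replicate 2. The nuclear receptor gene nhr-5 lay in a run of 55907 bp with 213. Among the 10 longest stretches, 1 was neither on IV nor in the duplicated block of V. It ran from 12065980 to 12136755 on II (70775 bp), held cnt-1 and the SET-domain gene set-24 beside Y17G7B.17, and had 10 and 16 summits in replicates 1 and 2.

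Protein-coding genes were somewhat less dense inside. Of 19973 genes, 2014 (10.1%) lay wholly inside a stretch, 2674 had their start inside one and 3168 overlapped one. Stretches covered 16.8% of the genome. Genes that cross an edge are missing from the first count, so 10.1% would fall below 16.8% even at equal density. No protein-coding gene lay wholly inside 212 stretches, and 30 stretches met none. Genes inside were more often repeated sequence, with 229 (11.4%) under 50% unique 31-mers, against 588 of 17959 others (3.27%). Part of this came from few stretches. The pair of duplicated runs on V held 32 and 14 protein-coding genes, and the histone pair 12 and 11. The share without them was not computed. Gene families were described by symbol, as 24 lists, against the 10.1% of all protein-coding genes. In 8 of the lists the share inside was higher, and no test was made, because family members lie in clusters and share a stretch.

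Chemoreceptor genes, which code for the G-protein-coupled receptors of sensory neurons, were the largest list. Of 1309, 215 (16.4%) lay inside, in 97 stretches, with 111 on V and 57 on IV. Those in the longest stretches included srd-71, str-119, srt-1 and str-267, all in the duplicated block of V, but the median member inside was 100% unique. Subfamilies ranged widely: 15 of 35 sra genes (42.9%), 13 of 39 sru genes (33.3%) and 20 of 67 srd genes (29.9%) were inside, against 1 of 61 sri genes (1.64%) and 2 of 39 srj genes (5.13%). Without IV the share of the whole list was 13.7%, against 1497 of 16692 protein-coding genes (8.97%).

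The other lists above the background were smaller. Fungus-induced peptide genes, part of the epidermal antimicrobial response, had 9 of 47 inside (19.1%), among them fip-7, fipr-28, fipr-27 and fipr-14. Histone genes had 15 of 81 (18.5%), of which 12 were on V in the pair of runs described above, and the median member inside had 0% unique 31-mers. Insulin/EGF-receptor L-domain genes had 10 of 56 (17.9%), with irld-35, irld-59, irld-56 and irld-55. Nematode-specific peptide genes had 10 of 58 (17.2%) in 3 stretches, with nspd-9, nspc-12, nspc-13 and nspc-14. UDP-glucuronosyltransferase genes, which act in detoxification, had 9 of 67 (13.4%), with ugt-19, ugt-20, ugt-30 and ugt-31. The list of math, bath and btb symbols, for MATH or BTB domain genes, had 11 of 90 (12.2%). All were math genes on II, in 4 stretches, with math-42, math-37, math-45 and math-13. Prion-like Q/N-rich genes had 8 of 70 (11.4%), with abu-5, pqn-78, pqn-79 and pqn-89, a share close to the background. By any overlap they had 15 of 70 (21.4%), but by that rule the background also rose, to 3168 of 19973 protein-coding genes. Of the 24 lists, 10 were then above the background. The UDP-glucuronosyltransferase list had 15 of 67 (22.4%).

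By genes wholly inside, the remaining lists were at or below the background. F-box genes had 23 of 322 inside (7.14%), among them fbxa-86, fbxb-85, fbxb-87 and fbxa-209. Nuclear hormone receptor genes had 23 of 269 (8.55%), with nhr-5, nhr-145, nhr-229 and nhr-272, and none on II. C-type lectin genes had 18 of 240 (7.50%), with clec-209, clec-193, clec-108 and clec-191. Neuropeptide and insulin-like genes had 13 of 140 (9.29%), with ins-21, ins-22, ins-23 and ins-34. Ribosomal protein genes had 6 of 81 (7.41%), with rps-18, rps-17, rps-6 and rps-25. Homeobox genes of the ceh series had 5 of 63 (7.94%), namely ceh-57, ceh-58, ceh-100, ceh-12 and ceh-28. Numbered collagen genes, which build the cuticle, were rarest among the larger lists, with 6 of 156 (3.85%), among them col-137, col-61, col-133 and col-56.

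Of the smaller lists, 4 of 44 major sperm protein genes were inside, namely msp-19, msp-55, msp-64 and msp-53. The 3 of 30 piwi and argonaute list members inside were sago-2, rde-8 and rde-10. That list takes in every gene with an rde symbol, whatever the type of its protein. The 3 of 47 saposin-like and lysozyme genes inside were spp-7, ilys-4 and spp-23. Cytochrome P450 genes had 3 of 74 inside (cyp-25A4, cyp-35A3 and cyp-31A5), and glutathione S-transferase genes had 2 of 44. Heat shock (22 genes), Skp1-related (20), SCP/TAPS-like (24) and vitellogenin genes (6) had 0 inside. All of these lists are small, and 1 cluster more or less inside a stretch changes their shares.

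Few of the authors' thresholded peaks fell inside stretches. All 483 conservative peaks are themselves in the main candidate list, so the 0 inside is fixed by the choice of stretches. The optimal list, whose 732 peaks are all in the second candidate list, had 4 inside, each between 558 and 1082 bp from an edge. The second list shares 93827 candidates with the main list by coordinates. A low number of optimal peaks inside is therefore in part built into the choice as well. One overlapped sms-3, a sphingomyelin synthase gene (III, summit at 1600860, signal 70.5), and another brd-1, the worm BARD1 (III, summit at 6888730, signal 44.4). A peak with no gene at its summit lay at 2031367 on III (signal 76.1). The strongest, at 15896067 on IV, had a signal of 264 and only 16.0% unique 31-mers around it, and was also in the list of replicate 1. That list had 3 of its 156 peaks inside stretches, and the list of replicate 2 had 0 of 92. Apart from the peak at 15896067, those of replicate 1 lay 39 and 9 bp from an edge, both on IV. Their intervals span the bounding summit, so they are edge peaks and not peaks within the empty run.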

How the data were processed

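Each of 2 replicates of anti-GFP ChIP-seq had a ranked candidate list and a thresholded list, and the whole series had 2 of each. The authors deposited them as peak intervals on ce11 with a summit offset and a signal value per peak, per the file names and labels. No source used here gives the aligner, peak caller or control treatment. A summit was the start plus the offset, and neighbouring summits 8 kb or more apart bounded a stretch, which holds the bases between them. Printed positions are 1-based. GC content, soft-masking and sequences came from RefSeq's WBcel235, and genes from Ensembl release 115. The chromosome lengths of WBcel235 fit all candidates. A 31-mer counted as unique if it occurred once in the nuclear genome on either strand. Gene families were lists of symbols. The homeobox, collagen and chemoreceptor lists were narrowed because wider patterns took in other genes. Genes named by rule were ceh-58 and its neighbours, unc-119, up to 3 genes of each of the 10 longest stretches and up to 4 members per family with at least 3 inside. Others, such as anc-1, were chosen after their values were seen. Members and lists were chosen with earlier results of these data known. No test was made: the 2 samples form 1 group and the stretches were picked from the lists. Scripts (Python 3.11.15, numpy 2.4.6, pandas 2.3.3, matplotlib 3.10.9) were tested on simulated sequences and summits. Depth is unknown, so no interval was given. Alternatives were other lengths, peak edges, chromosome ends, other lists, 50-mers, narrower arms, gene overlap rules and edge trims; the last trim and the runs without IV or without the least unique stretches were chosen after seeing the data.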

Additional observations from a re-analysis of the deposited data

How the results depend on the processing

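No paired analysis was possible because the 2 replicates form 1 group and no result comes from a test. The number of stretches, their summed length and the count of protein-coding genes wholly inside stayed within 1.5 times under every alternative run, except that 3168 genes overlapped a stretch. GC content inside was 32.8% with a minimum of 6 kb, 32.7% with 10 kb, 32.7% with peak edges, 32.8% with chromosome ends, 32.7% in the second list, 33.2% without IV and 32.6% without the least unique stretches, and from a single replicate's list 33.0% either way; all lie below the 36.0% outside the main stretches. From single replicate lists, the soft-masked share ran from 44.4% to 46.2%, the unique share from 82.0% to 83.7%, the share in outer parts of chromosomes from 68.0% to 68.9%, the share of piRNA genes of IV from 62.9% to 66.1%, and the family lists above the background from 12 to 13 instead of 8. The unique share was 87.7% with 50-mers and 88.0% without the least unique stretches. Outer parts held 68.0% in the second list. With chromosomes cut into 4 instead of 3 parts they held 54.1%, and they then make up a smaller share of the length. Stretches empty in both replicates numbered 29 with a minimum of 6 kb, 42 with peak edges, 7 where no candidate interval of either may overlap, 69 with 500 bp trimmed at each end and 198 with 2000 bp trimmed, instead of 19; more trimming leaves less sequence to be empty. The share of histone genes inside was 27.2% with a minimum of 6 kb and from the list of replicate 1 alone. The depth of the libraries and the control limit what an empty stretch can mean, and neither was analysed here.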
